A study of Mus musculus with 6 samples.

Results

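The enzymes that make and break down prostaglandins and leukotrienes were examined in cells of the arthritic mouse joint. The 9 genes were chosen by symbol (Ptgs1, Ptgs2, Ptges, Hpgds, Hpgd, Alox5, Alox5ap, Lta4h and Ltc4s), and all 9 of them were present among the 20394 genes of the count table. The joints came from male C57BL/6 mice, bought at 8 weeks of age, with antigen-induced arthritis (AIA). All mice had received methylated BSA (mBSA, 10 µg) in complete Freund's adjuvant under the skin and, on day 21, 100 µg of mBSA into the knee, and the synovium was taken 3 days later. They were treated with PBS (2 samples) or with PEPITEM (300 µg, 4 samples), a peptide given into the peritoneum from day 21. Digested synovial cells were sorted for CD45, the common leukocyte antigen, and processed by 3′ single-cell RNA-seq. The labels do not say which animals, or how many, stand behind a library.

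The table held 32953 cells in 6 libraries of 2919 to 9345 cells, with medians of 9923 to 14001 unique molecular identifiers (UMIs, each standing for 1 captured RNA molecule) per cell. The barcodes carried a library number from 1 to 6, and nothing ties a number to a sample. PEPITEM was therefore not compared with PBS for any member, no statistical test was made, and the 6 libraries are given as samples of unknown treatment by their lowest, median and highest value. Cells were sorted into classes by marker genes, none of which was a member, and 20 classes with at least 50 cells were ranked. Gate markers were not all highest in their own class. The shares that were so were lowest for type 2 dendritic cells (1 of 3), classical monocytes (2 of 5) and Fxyd2 macrophages (1 of 2). For B cells and T cells it was 6 of 6 each. Mature neutrophils (5742 cells), B cells (5443), immature neutrophils (4818) and classical monocytes (3714) were the largest classes, and granulocyte precursors (1107) and stem or progenitor cells (262), which are cells of the bone marrow, were also present. The B cell gate included Vpreb1 and Vpreb3, which are genes of B cell precursors. Cycling genes (at least 2 of Mki67, Top2a, Ube2c and Birc5) marked 839 of the B cells and 1216 of the immature neutrophils. Whether cells of these classes came from the synovium or from marrow was not tested. Fibroblasts (120 cells) were kept although Ptprc, the gene of CD45, was detected in 10.8% of them. A further 1781 cells passed a neutrophil and the macrophage gate together, at a median of 24723 UMIs per cell, and were kept apart. Between libraries, 138 barcode sequences were shared, of which 15 fell in the same class.

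Prostaglandins and leukotrienes are lipids made from arachidonic acid, which phospholipases free from membranes. The cyclooxygenases turn it into prostaglandin H2, from which further synthases form each prostaglandin. 5-lipoxygenase, helped by its activating protein FLAP, turns it into leukotriene A4, from which a hydrolase makes leukotriene B4, a strong attractant of neutrophils, and a synthase makes leukotriene C4, the parent of the cysteinyl leukotrienes. In inflamed joints these lipids are known for pain, swelling and leukocyte entry, and cyclooxygenase is the target of the non-steroidal anti-inflammatory drugs. By GENCODE vM21 on GRCm38, Ptgs1 spans chr2:36230426-36252272 and Ptges chr2:30889471-30929863, Ptgs2 chr1:150100031-150108227, Hpgds chr6:65117293-65144908 and Alox5 chr6:116410077-116461178. Hpgd spans chr8:56294585-56321043, Alox5ap chr5:149264767-149288153, Lta4h chr10:93453411-93484875 and Ltc4s chr11:50236461-50238616.

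Levels are UMIs of a gene scaled to a class total of 1e+06 UMIs (CPM), pooled over the cells of the class unless a library is named. The intervals are 95% exact Poisson intervals for CPM and Wilson intervals for percentages, and both cover counting error only. A library value was used only where the library held at least 20 cells of the class. Since the ends of transcripts were counted, levels are compared between classes for 1 gene and not between genes. Over all cells, member totals ran from 3666 UMIs for Ptges to 334998 for Alox5ap, which ranked 193 among all genes. All 9 members reached 20 CPM in a class. The highest class was at least 2-fold above the next for 4 members (Ptges, Hpgds, Hpgd and Ltc4s), against 21.6% of the 10469 genes that reached the same level. For 3 members (Ptges, Hpgds and Ltc4s) every library of the highest class was above every library of every other class, against 28.0% of 10343 genes. With a minimum of 50 cells of a class in a library in place of 20, this held for 6 members (Ptgs2, Hpgds, Hpgd, Alox5, Lta4h and Ltc4s) of the 8 that still reached 20 CPM, against 33.7% of 9319 genes. Mast cells, fibroblasts, nonclassical monocytes and Fxyd2 macrophages then have no library value, and granulocyte precursors lose 2 libraries. Other classes lose library values too, among them resident and inflammatory macrophages, each with as few as 39 cells in a library. The class concerned changed to resident macrophages for Hpgds and Hpgd, and Ptges, then highest in immature neutrophils at 15.8 CPM, was not counted. The counts for the members are too few to be set against these shares as more than a description.

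**Figure D1:**
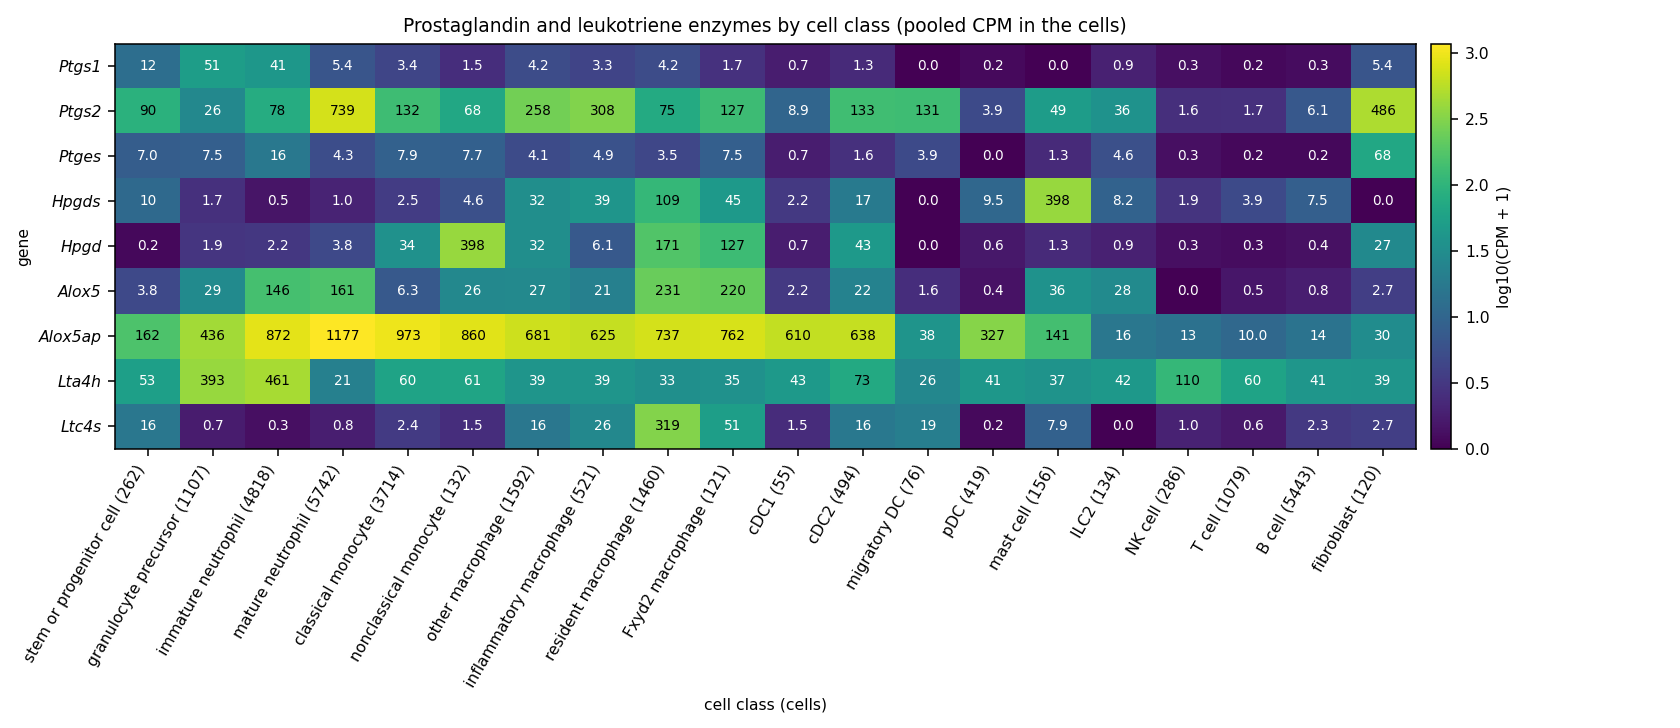
Pooled CPM of the 9 members (rows) in 20 cell classes (columns, number of cells in parentheses), with the value printed in each cell and the colour on a log10(CPM + 1) scale. Ptgs2 stands highest in mature neutrophils (739), Lta4h in immature neutrophils (461), Ltc4s in resident macrophages (319), Hpgds in mast cells (398) and Hpgd in nonclassical monocytes (398).

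Ptgs2 encodes cyclooxygenase 2, the inducible form of the enzyme. Among the ranked classes its pooled level was highest in mature neutrophils, at 739 CPM (interval 730.2 to 748.3). At least 1 UMI was held by 71.8% of these 5742 cells (interval 70.7 to 73.0%). The lowest library was at 570.4 CPM, the median at 806 and the highest at 1246. Without the 50 leading genes in the total, those with the most UMIs over all cells, the pooled level was 1158. Fibroblasts followed at 486 CPM (interval 455 to 519), from 903 UMIs in 120 cells. The only libraries with 20 fibroblasts, numbers 1 and 5, were at 508 and 578 CPM, while libraries 2 and 6, with 4 and 11 fibroblasts, held no Ptgs2 UMI in them. Libraries 3 and 4, with 11 and 7 fibroblasts, were at 649.5 and 667 CPM. Library 5 lay within the range of the mature neutrophil libraries, so the ranges of both classes overlapped.

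Among macrophages, the resident class had the lowest pooled level of Ptgs2, although it was above Fxyd2 macrophages in 1 of 3 libraries. The inflammatory class, gated on at least 2 of Arg1, Spp1, Cxcl9, Nos2 and Gpnmb, held 308 CPM (library range 119 to 507), the macrophages without further markers 258 (133 to 401) and the resident class, gated on at least 2 of Lyve1, Cd163, Folr2, Timd4 and Vsig4, 74.6 (31.0 to 108). The inflammatory class was 4.13-fold above the resident class in the pooled cells, with 2.41-fold to 7.25-fold within libraries, and was higher in 6 of 6. The inflammatory class was above the macrophages without further markers in only 2 of 6 libraries, so these 2 classes had no fixed order. Fxyd2 macrophages, gated on Fxyd2 and Aqp1, were at 127 CPM, with 29.4 to 213 over 3 libraries. Classical monocytes were at 132 CPM and type 2 dendritic cells at 133, within each other's library ranges. Mature neutrophils were above inflammatory macrophages in 6 of 6 libraries (2.40-fold pooled) and above classical monocytes in 6 of 6 (5.61-fold). Counted per cell, however, an inflammatory macrophage held 6.47 UMIs of Ptgs2 and a mature neutrophil 4.49, since the macrophages carried more UMIs in all (median 18874 against 5206). Lymphocytes were low. B cells, which had a median depth of 5777 UMIs, close to that of mature neutrophils, held Ptgs2 in 2.08% of cells (6.07 CPM), T cells were at 1.68 CPM and NK cells at 1.61 CPM.

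Ptgs1 encodes cyclooxygenase 1, the constitutive form that platelets use to make thromboxane. Granulocyte precursors held 50.5 CPM (library range 40.6 to 74.2) and immature neutrophils 41.2 (31.97 to 47.3), and the ranges of both overlapped. The order of this pair turned when the 50 genes with the most UMIs over all cells were left out of the total (66.8 against 82.2). These genes made up 24.4% of the UMIs of granulocyte precursors and 49.8% of those of immature neutrophils. Stem or progenitor cells followed at 11.9 CPM, and all other ranked classes were at 5.39 CPM or less. Immature neutrophils gave 48.9% of all Ptgs1 UMIs and granulocyte precursors 26.8%. In mast cells there was no Ptgs1 UMI in 156 cells, which allows a share of cells with a UMI of up to 1.92%. Limits of this kind bear on cells with a UMI and not on cells that express the gene.

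Within the neutrophil lineage the isoforms ran in opposite directions. Ptgs1 was at 5.39 CPM in mature neutrophils, below immature neutrophils in 6 of 6 libraries (7.65-fold pooled, 3.40-fold to 11.4-fold within libraries). Ptgs2 was 9.499-fold higher in mature than in immature neutrophils (5.09-fold to 15.4-fold within libraries) and again differed in 6 of 6. Neither pair of library ranges overlapped. With immature neutrophils split by cycling genes (at least 2 of Mki67, Top2a, Ube2c and Birc5), Ptgs1 was at 59.7 CPM in the 1216 cycling cells and 28.6 in the 3602 others, while Ptgs2 was at 47.5 and 98.6. Per cell, Ptgs1 went from 1.81 UMIs in a granulocyte precursor to 0.0327 in a mature neutrophil, and Ptgs2 from 0.945 to 4.49.

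**Figure D2:**
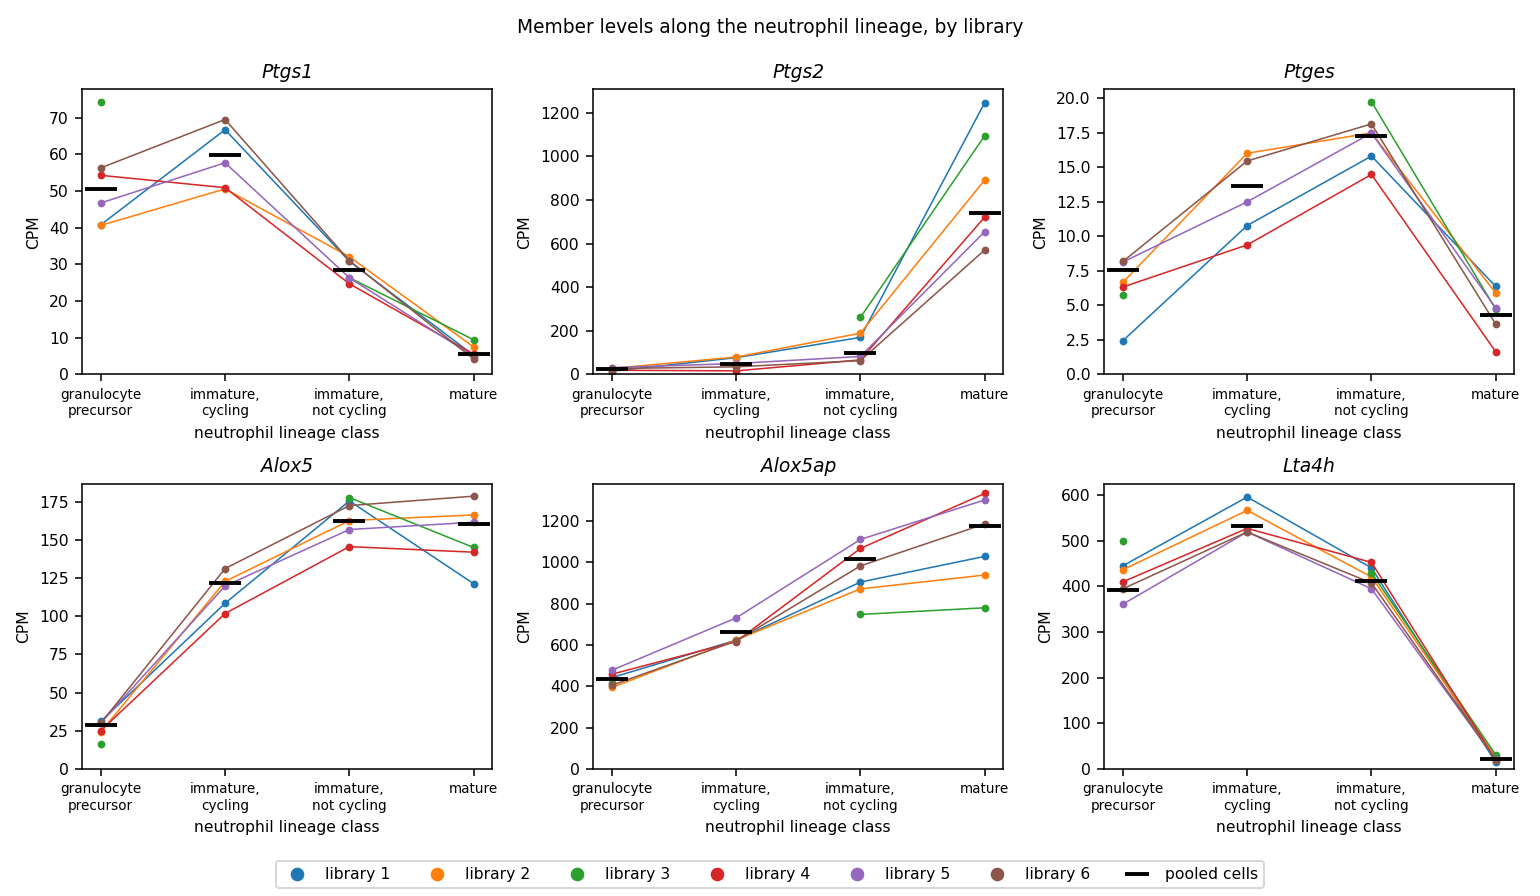
CPM (y axis, from 0) of 6 members in granulocyte precursors, cycling and other immature neutrophils and mature neutrophils (x axis), with a line for each library with at least 20 cells of the class and a black bar for the pooled cells. Library 3 had 15 cycling immature neutrophils and has no point there. Ptgs1 and Lta4h are lowest and Ptgs2 is highest in mature neutrophils in every library.

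The promoter windows of both cyclooxygenases and of Lta4h, the member that shared the pattern of Ptgs1 along the neutrophil lineage, are printed below from RefSeq (GRCm38.p6, from 250 bases before to 50 after the annotated start). Promoter windows were matched for 8 of 9 members, the exception being Alox5ap. The capitals mark short motifs searched on both strands. They are TGACG, which is an arm of a cAMP response element, the GATA factor motif AGATAA and the C/EBP family motif TTNNGNAA. The promoter box spelled TATAAA and the motif GAGGAA were searched too. GAGGAA contains GGAA, the core of Ets family sites, and GGAA elsewhere in a window was not marked. Ptgs1 lies on chr2:36230176-36230475 (plus strand), Ptgs2 on chr1:150099781-150100080 (plus strand) and Lta4h on chr10:93453146-93453445 (plus strand).
Ptgs1: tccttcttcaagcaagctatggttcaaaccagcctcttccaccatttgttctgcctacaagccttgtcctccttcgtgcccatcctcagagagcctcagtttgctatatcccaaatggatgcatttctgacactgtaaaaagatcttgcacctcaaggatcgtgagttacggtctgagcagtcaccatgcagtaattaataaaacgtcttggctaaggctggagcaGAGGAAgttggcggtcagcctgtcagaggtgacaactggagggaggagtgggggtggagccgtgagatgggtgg
Ptgs2: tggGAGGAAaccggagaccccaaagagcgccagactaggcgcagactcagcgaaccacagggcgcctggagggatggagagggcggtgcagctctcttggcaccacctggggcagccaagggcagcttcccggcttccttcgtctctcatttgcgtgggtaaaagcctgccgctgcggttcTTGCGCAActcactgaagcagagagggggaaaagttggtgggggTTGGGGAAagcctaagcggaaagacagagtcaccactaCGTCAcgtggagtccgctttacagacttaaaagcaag
Lta4h: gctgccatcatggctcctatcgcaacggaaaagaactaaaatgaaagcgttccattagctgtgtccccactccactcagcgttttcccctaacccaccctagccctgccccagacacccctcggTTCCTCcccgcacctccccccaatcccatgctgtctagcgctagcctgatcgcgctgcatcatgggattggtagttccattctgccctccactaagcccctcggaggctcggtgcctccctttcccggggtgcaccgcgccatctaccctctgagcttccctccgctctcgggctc

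In these windows the Ptgs2 promoter held 2 matches of the C/EBP motif, 1 of the cAMP response motif on the minus strand and 1 of GAGGAA. Ptgs1 and Lta4h each held 1 match of GAGGAA and none of the other motifs. GAGGAA was present in 8 of the 8 member windows and in 28.3% of all 32841 windows of that length. The C/EBP motif was in 4 of 8 against 40.7%, the cAMP response motif in 1 of 8 against 20.8%, the TATA box in 1 of 8 against 13.6% and the GATA motif in 0 of 8 against 11.2%. The motifs do not overlap in the windows printed, and a match describes letters, not a bound site. The plan of the work named no motifs, and these shares are descriptions only.

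Ptges encodes the microsomal prostaglandin E synthase that works with cyclooxygenase 2. It had the fewest UMIs of the members and was highest in fibroblasts, at 67.8 CPM (interval 56.5 to 80.8) and in 40.8% of cells. Library 1 was at 82.6 CPM and library 5 at 63.6, and both were above all libraries of all other classes. Immature neutrophils were the next class at 15.8 CPM (12.5 to 19.3), above mature neutrophils, which were at 4.33 (1.63 to 6.37). Of fibroblasts thinned to 3000 UMIs, 27.4% were positive for Ptgs2, 16.2% for Ptges and 7.69% for both (9 cells). Independent detection of the genes would give 4.44%. The ranked classes other than fibroblasts and immature neutrophils had at most 7.92 CPM of Ptges.

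Hpgds encodes the hematopoietic prostaglandin D synthase, and prostaglandin D2 is the main prostaglandin of mast cells. Mast cells were at 398 CPM (interval 354 to 446). In the 3 libraries with at least 20 mast cells, the values were 419, 367 and 386 CPM for libraries 1, 4 and 5. Resident macrophages came next at 109 CPM (101 to 121), again below every mast cell library, and were 3.39-fold above the macrophages without further markers in the pooled cells and higher in 6 of 6 libraries. Fxyd2 macrophages held 45.4 CPM, inflammatory macrophages 39.0 and classical monocytes 2.52. The mast cells were shallow, with a median of 3886 UMIs. After thinning to 3000 UMIs, 59.6% of 99 mast cells and 26.5% of 1394 resident macrophages were positive, against 63.5% and 57.7% before thinning. B cells were positive in 4.24% of cells and, after thinning, in 2.38%. Fibroblasts held no Hpgds UMI in 120 cells, which allows a share of cells with a UMI of up to 2.5%.

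Hpgd encodes 15-hydroxyprostaglandin dehydrogenase, which inactivates prostaglandins E2 and F2α. It was most abundant in nonclassical monocytes, the patrolling monocytes gated on Ace, at 398 CPM (interval 364 to 433) and in 59.1% of 132 cells. This level was uneven among libraries, with 710 CPM in library 4, 539 in library 5 and 180 in library 6. The lowest of these lay within the range of resident macrophages, which were at 171 CPM (128 to 201), so that the order of both classes was not the same in every library (2 of 3). Nonclassical monocytes were 11.6-fold above classical monocytes, which were at 34.3 CPM (16.03 to 44.2), and higher in 3 of 3 libraries. Inflammatory macrophages were at 6.13 CPM (1.34 to 13.6). Resident macrophages were 27.9-fold above them in the pooled cells, 9.38-fold to 150-fold within libraries, and higher in 6 of 6. Ptgs2 and Hpgd thus stood in opposite order in these macrophage classes.

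**Figure D3:**
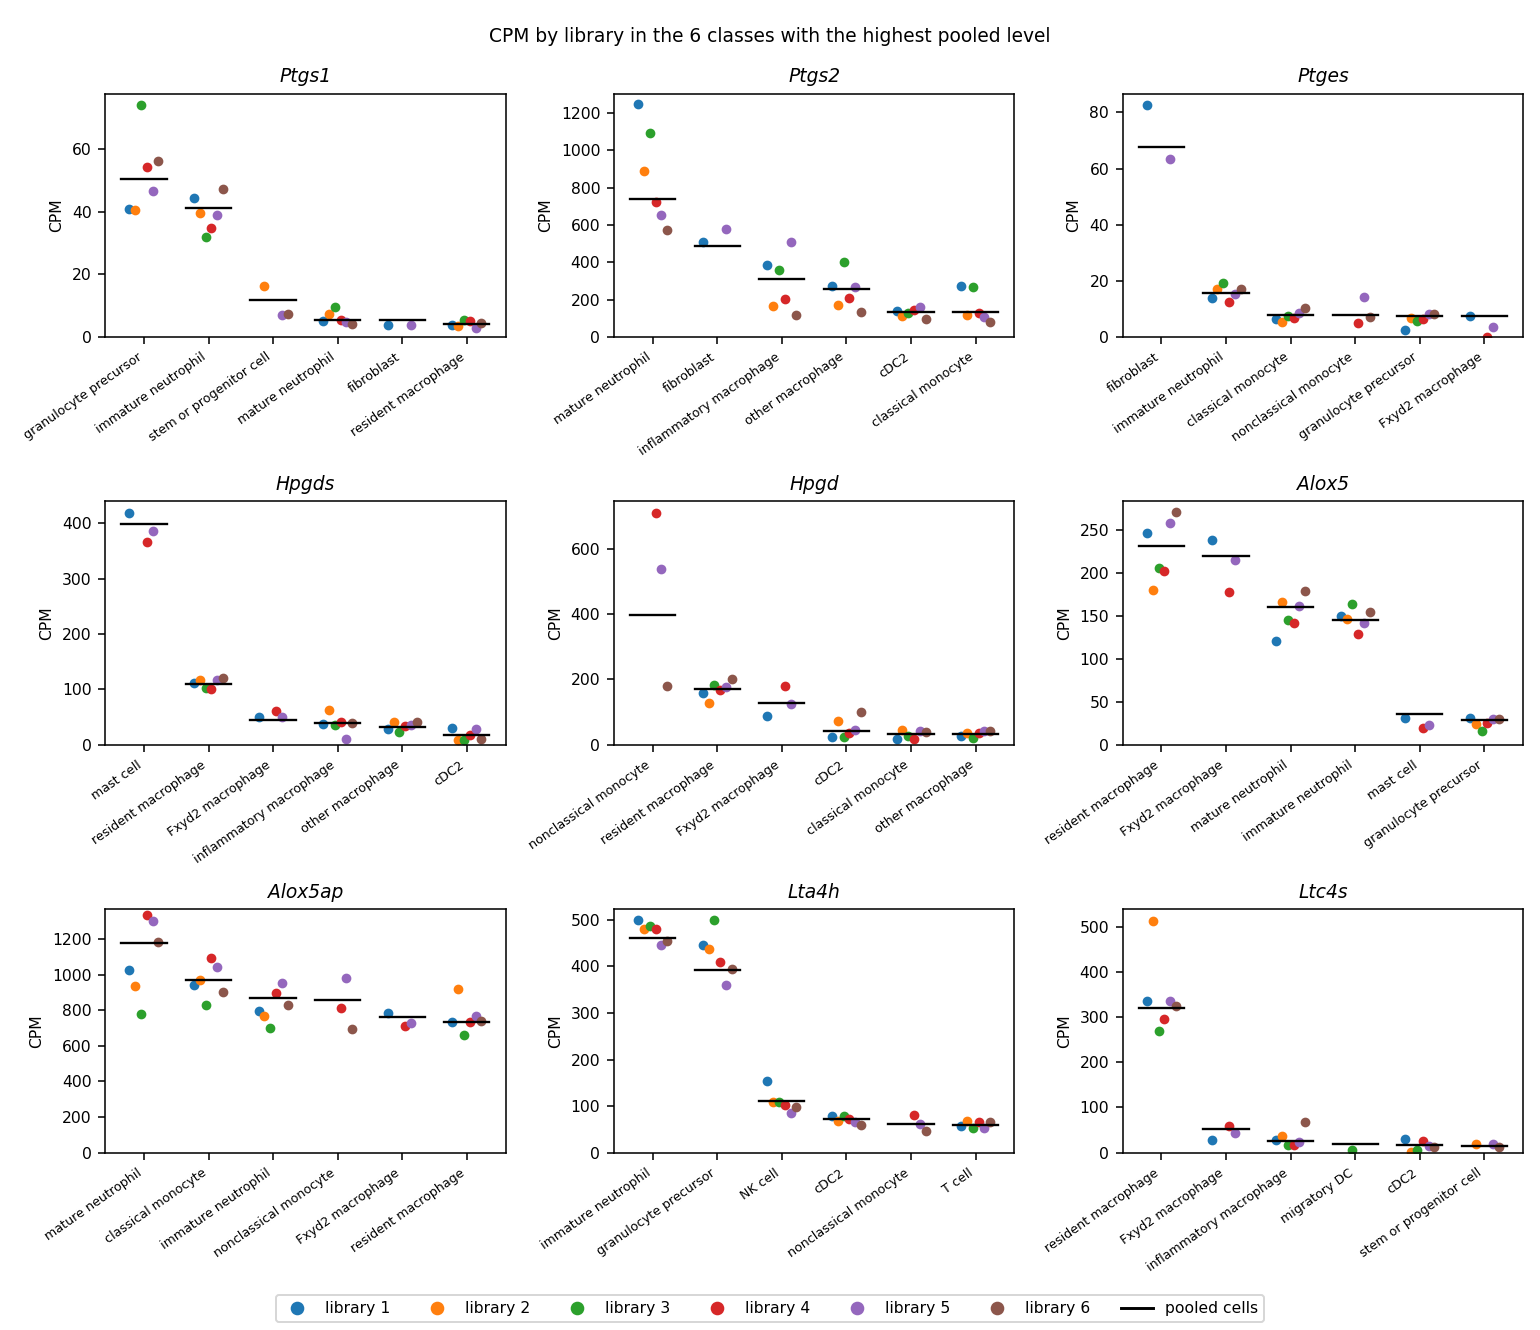
CPM (y axis, from 0) of each member in the 6 classes with its highest pooled level (x axis), with 1 point for each library with at least 20 cells of the class and a black line for the pooled cells. The points of Hpgds in mast cells, Ltc4s in resident macrophages and Ptges in fibroblasts lie above all other points of the panel, while those of Alox5ap overlap from class to class.

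Alox5 encodes 5-lipoxygenase, which carries out the first step of leukotriene synthesis. Among the ranked classes it was highest in resident macrophages, at 231 CPM (library range 180.3 to 271), and in Fxyd2 macrophages, at 219.7 (178 to 239), which overlapped. Mature neutrophils were at 161 CPM (121 to 179) and immature neutrophils at 146 (129 to 164). The 4 classes stood apart from the other ranked classes, since the next, mast cells, was at 35.7 CPM. Basophils, too few to be ranked, are described at the end. Within the 4 the order depended on the total: without the 50 leading genes over all cells, immature neutrophils were at 291 CPM and resident macrophages at 273. Classical monocytes, by contrast, were at 6.28 CPM (3.95 to 11.4), and resident macrophages were 36.8-fold above them pooled and 17.8-fold to 57.8-fold within libraries. Macrophages without further markers were at 27.1 CPM and inflammatory macrophages at 20.6, below resident macrophages in 6 of 6 libraries each. Alox5 was at 28.6 CPM in granulocyte precursors, and immature neutrophils were 5.09-fold above these. Mature and immature neutrophils were close on the CPM scale (1.10-fold, higher in 4 of 6 libraries, and 0.867-fold without the 50 leading genes), but per cell the mature class held 0.976 UMIs and the immature class 2.69. In NK cells there was no Alox5 UMI in 286 cells, which allows a share of cells with a UMI of up to 1.05%, and B cells were positive in 0.606% of cells.

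Alox5ap encodes FLAP, the membrane protein that presents arachidonic acid to 5-lipoxygenase. It was the broadest member of the group in myeloid cells. Mature neutrophils were at 1177 CPM (780.2 to 1334, and 1844 without the 50 leading genes), classical monocytes at 973 (829 to 1096), immature neutrophils at 872 (698 to 956) and resident macrophages at 737 (661 to 918), and the library ranges of each of these and the next named overlapped. Type 1 and type 2 dendritic cells were at 609.6 and 638 CPM, whereas migratory dendritic cells, gated on Fscn1, Ccr7, Ccl22 and Cacnb3, were at 38.1. Plasmacytoid dendritic cells were at 327 CPM (294 to 443) and positive in 93.6% of cells, 23.9-fold above B cells, which were at 13.7 CPM. Classical monocytes held Alox5ap in 98.5% of cells and Alox5 in 8.13%. Plasmacytoid dendritic cells held Alox5 in 0.477% of cells, which is not above the share in B cells.

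Lta4h encodes leukotriene A4 hydrolase, which makes leukotriene B4. It was detected in every ranked class, and all classes but 2 were between 20.8 and 110 CPM. Immature neutrophils were at 461 CPM (446 to 499, and 919 without the 50 leading genes) and granulocyte precursors at 393 (361 to 500.2). Both were above every library of every other ranked class with a library value, and they gave 51.1% and 19.5% of the Lta4h UMIs. Mature neutrophils were at the low end, at 20.8 CPM (13.9 to 30.6), and were not told apart from migratory dendritic cells, which were at 25.7 CPM pooled and at 16.5 in their only library value. Immature neutrophils were 22.1-fold above mature neutrophils pooled, 15.9-fold to 35.8-fold within libraries and 67.1-fold per cell. The share of positive cells at 3000 UMIs was 62.3% in immature and 5.06% in mature neutrophils, while that of Alox5 was 36.3% and 36.5%. At that depth 21.6% of immature and 1.76% of mature neutrophils were positive for Alox5 and Lta4h together. Independent detection of the genes would give 22.6% and 1.85%. Among lymphocytes, NK cells had the highest level, at 110 CPM (84.1 to 154), 1.84-fold above T cells and higher in 6 of 6 libraries.

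Ltc4s encodes leukotriene C4 synthase. Resident macrophages, 4.43% of all cells, gave 63.4% of its UMIs. They were at 319 CPM (269 to 513), and 75.5% of cells were positive. Library 2, with 39 resident macrophages, was the highest. Fxyd2 macrophages were at 51.2 CPM (27.4 to 58.7), inflammatory macrophages at 26.1 (17.0 to 67.1) and macrophages without further markers at 15.6 (5.43 to 36.9), and the resident class was 20.5-fold above the last of these. Mast cells were at 7.93 CPM, from 6 UMIs in 156 cells, and classical monocytes at 2.36. At 3000 UMIs, 25.3% of 1394 resident macrophages were positive for Alox5 and Ltc4s together and 14.1% for Hpgds and Ltc4s. Independent detection of the genes would give 23.2% and 12.6%. Ltc4s and the antisense gene Gm26542 overlap in exons (GENCODE vM21), as do Alox5ap and the antisense Gm19719 and Ptgs1 and Gm43621 on the opposite strand, and whether reads were counted by strand is not given in the sources used here.

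The promoter windows of Hpgds and Ltc4s, the members that were highest in mast cells and resident macrophages, are shown with the same motifs in capitals. Hpgds lies on chr6:65144681-65144980 (minus strand) and Ltc4s on chr11:50238483-50238782 (minus strand). The RefSeq starts of both lie inside the GENCODE gene spans given above, so bases before these starts also fall within the annotated genes.
Hpgds: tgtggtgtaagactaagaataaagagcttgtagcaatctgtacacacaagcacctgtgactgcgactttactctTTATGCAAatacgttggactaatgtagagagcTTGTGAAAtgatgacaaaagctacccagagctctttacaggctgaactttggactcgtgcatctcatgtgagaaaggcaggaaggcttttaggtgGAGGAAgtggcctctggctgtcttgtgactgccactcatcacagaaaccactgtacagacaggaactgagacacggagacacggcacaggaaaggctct
Ltc4s: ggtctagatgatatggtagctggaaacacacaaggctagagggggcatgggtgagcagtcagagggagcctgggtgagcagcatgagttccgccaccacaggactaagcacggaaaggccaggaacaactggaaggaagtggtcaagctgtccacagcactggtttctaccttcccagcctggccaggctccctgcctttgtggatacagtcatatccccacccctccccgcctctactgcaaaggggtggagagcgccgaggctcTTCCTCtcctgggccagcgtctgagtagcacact

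The Hpgds window held 2 matches of the C/EBP motif and 1 of GAGGAA, and the Ltc4s window held 1 of GAGGAA. Neither window held any of the other motifs.

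**Figure D4:**
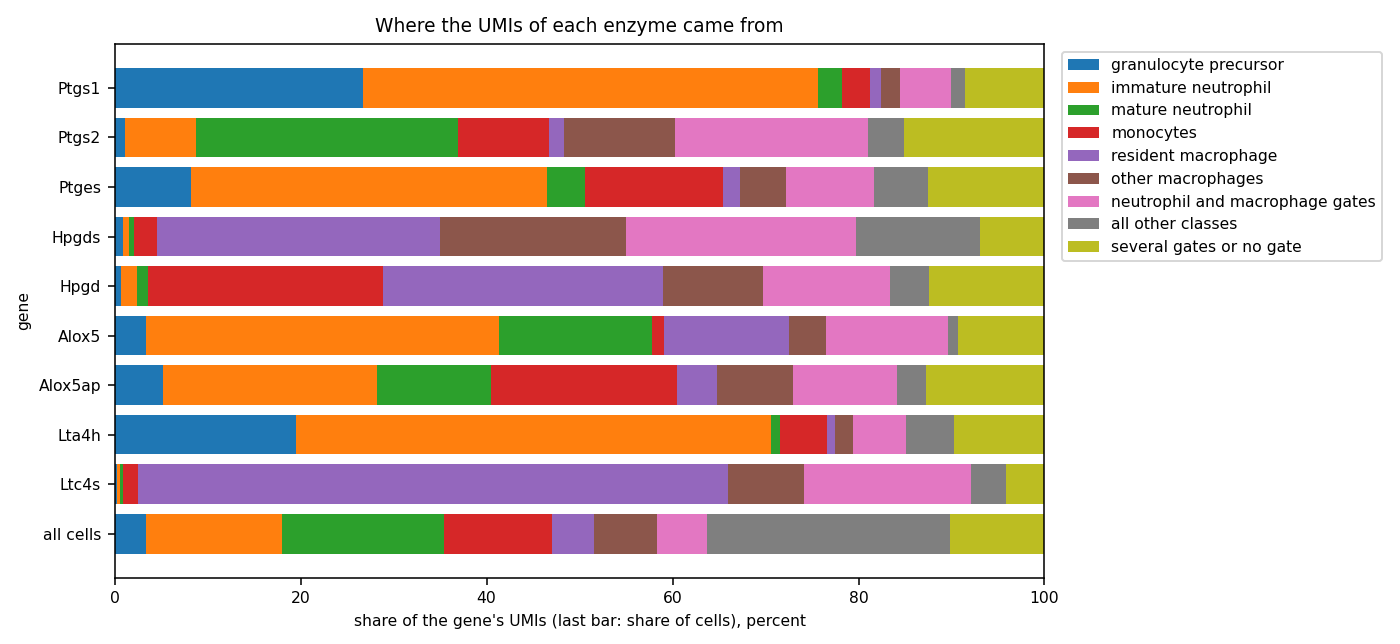
Share of the UMIs of each member (percent, x axis) by group of classes, with the share of all cells in the bottom bar. Classes differ in depth, so the share of cells of a group is not its share of all UMIs. Immature neutrophils and granulocyte precursors give most of the UMIs of Ptgs1 and Lta4h, resident macrophages most of those of Ltc4s, and cells that passed a neutrophil and the macrophage gate give 24.8% of those of Hpgds and 20.8% of those of Ptgs2.

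The 1781 cells that passed both a neutrophil and the macrophage gate held members of either kind. Ptgs2 was at 388 CPM in them, Alox5 at 91.3, Hpgds at 35.8, Hpgd at 31.2 and Ltc4s at 36.3. For Ptgs2 this was below mature neutrophils and above the macrophages without further markers in 6 of 6 libraries. S100a8, an abundant neutrophil gene, was at 43391 CPM in these cells, against 102405 in mature neutrophils and 1374 in macrophages without further markers, and Csf1r, a macrophage gene, was at 402 against 52.9 and 475. Whether such a cell is 1 cell or 2 was not tested. These cells entered no ranking.

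For some members the same library was the lowest in most classes. The classes with at least 20 cells in every library, and 20 CPM of Ptgs2 in at least 1, numbered 9. The cells of both gates were among them. Library 6 had the lowest Ptgs2 in 7 of these classes. The highest was library 3 in 4, library 5 in 3 and library 1 in 2, and library 3 was also the lowest in 1. For Alox5ap, library 3 was the lowest in 7 of 11 classes. For Ltc4s, library 3 was the lowest in 4 of 5. These cases were picked from all members and libraries, and the same counts were not made over all genes, so they are descriptions only. Classes of a library share its preparation and sequencing, and the treatment of each library is unknown.

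For each member, the genes with the most similar pattern were sought over the 20 classes, by Pearson r of log2(CPM + 1) among genes reaching 20 CPM. For Ptgs2 they were Fam114a1 (r = 0.87), Tnfaip2 (0.87), Cxcl2 (0.85), a neutrophil-attracting chemokine, Ier3 (0.83) and Tlcd2 (0.83). For Ptgs1 they were Alas1, Dach1, Cebpe, a factor of granulocyte maturation, Asns and Mcee (r = 0.84 to 0.86), and for Lta4h Mogat2, 1700020L24Rik, Tmem216, Fcnb, itself a marker of the immature neutrophil gate, and Orm1 (0.85 to 0.89). Alox5ap was most like Nfam1 (0.96), Cd300a (0.95), Sh2b2, Clec12a and Lyz2, and Alox5 most like Cd33, Lilr4b, C5ar1, the receptor of complement C5a, Tnfsf13b and Fam63a (0.82 to 0.87). Ltc4s was most like Trpv4 (0.90), Pf4, Fxyd2, itself a gate marker, Plxna4 and Ccl24, and Hpgd was like Abca9 (0.90) and Hmox1 (0.87), which encodes heme oxygenase 1. Hpgds was most like Fnip1, Rab3gap2, Atp6v1h, Tet3 and Tmem251, each highest in mast cells (0.85 to 0.90), and Ptges like Tnfaip6, Rnd1, C3, Lbp and Rhou (0.80 to 0.88). The classes share libraries and cell sorting, and the genes were picked for their r, so that these values are descriptions only.

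Other genes of the pathway came from a list of 53 symbols, older and newer symbols of a gene counted apart, of which 48 were in the table and 32 reached 20 CPM in a ranked class, against 51.3% of all genes. Among phospholipases (5 of 9), Pla2g4a, which encodes cytosolic phospholipase A2, was highest in stem or progenitor cells at 74.7 CPM and between 36.9 and 64.8 CPM in granulocyte precursors, neutrophils, monocytes and macrophages. Plaa, counted in this role, encodes a protein that activates phospholipase A2 and not a phospholipase. It was at 70.7 CPM in inflammatory macrophages and close behind in B cells at 66.2. Pla2g15 was highest in inflammatory macrophages at 46.9 CPM (39.2 to 65.7 over libraries), with resident macrophages at 43.9, within that range. Among the other prostaglandin synthases (6 of 8), Ptges3, the cytosolic prostaglandin E synthase and a co-chaperone, was at 275 CPM in stem or progenitor cells. Tbxas1, which encodes thromboxane A synthase, was highest in inflammatory macrophages at 234 CPM (194 to 275 over libraries), and Ptgis, the prostacyclin synthase, in fibroblasts at 167.

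Among the other leukotriene and lipoxygenase genes (5 of 10), Mgst2 was highest in immature neutrophils at 186 CPM (157.5 to 203). It encodes a microsomal glutathione transferase that can also make leukotriene C4. Granulocyte precursors were at 172 CPM of Mgst2, within that range. Dpep2, which encodes a dipeptidase that turns leukotriene D4 into E4, was at 159.9 CPM and Mgst3 at 117 in Fxyd2 macrophages. Of the breakdown genes (5 of 6), Cyp4f18, a neutrophil enzyme that inactivates leukotriene B4, was highest in mature neutrophils at 499 CPM (472 to 550.2), Ptgr1 in granulocyte precursors at 97.7 and Cyp4f16 in nonclassical monocytes at 75.2.

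Of the transporters (3 of 3), Abcc1, which exports leukotriene C4, was highest in resident macrophages at 175 CPM (148 to 206), the class in which Ltc4s was highest. It was broader than Ltc4s, with 134 CPM in Fxyd2 macrophages, 124 in stem or progenitor cells and 115 in inflammatory macrophages. Abcc4, an exporter of prostaglandin E2, was highest in type 2 dendritic cells at 188 CPM (156 to 266), with classical monocytes at 169, within that range. Slco2a1, the prostaglandin uptake transporter, was highest in fibroblasts at 164. Of the receptors (8 of 12), Ltb4r1, the high-affinity leukotriene B4 receptor, was highest in immature neutrophils at 288 CPM (269.9 to 305), against 83.7 in mature neutrophils. Ptger4, a prostaglandin E2 receptor, was highest in migratory dendritic cells at 222 CPM, a class with only 1 library value (292). Cysltr1, a cysteinyl leukotriene receptor, was highest in group 2 innate lymphoid cells at 186 (133 to 221).

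**Figure D5:**
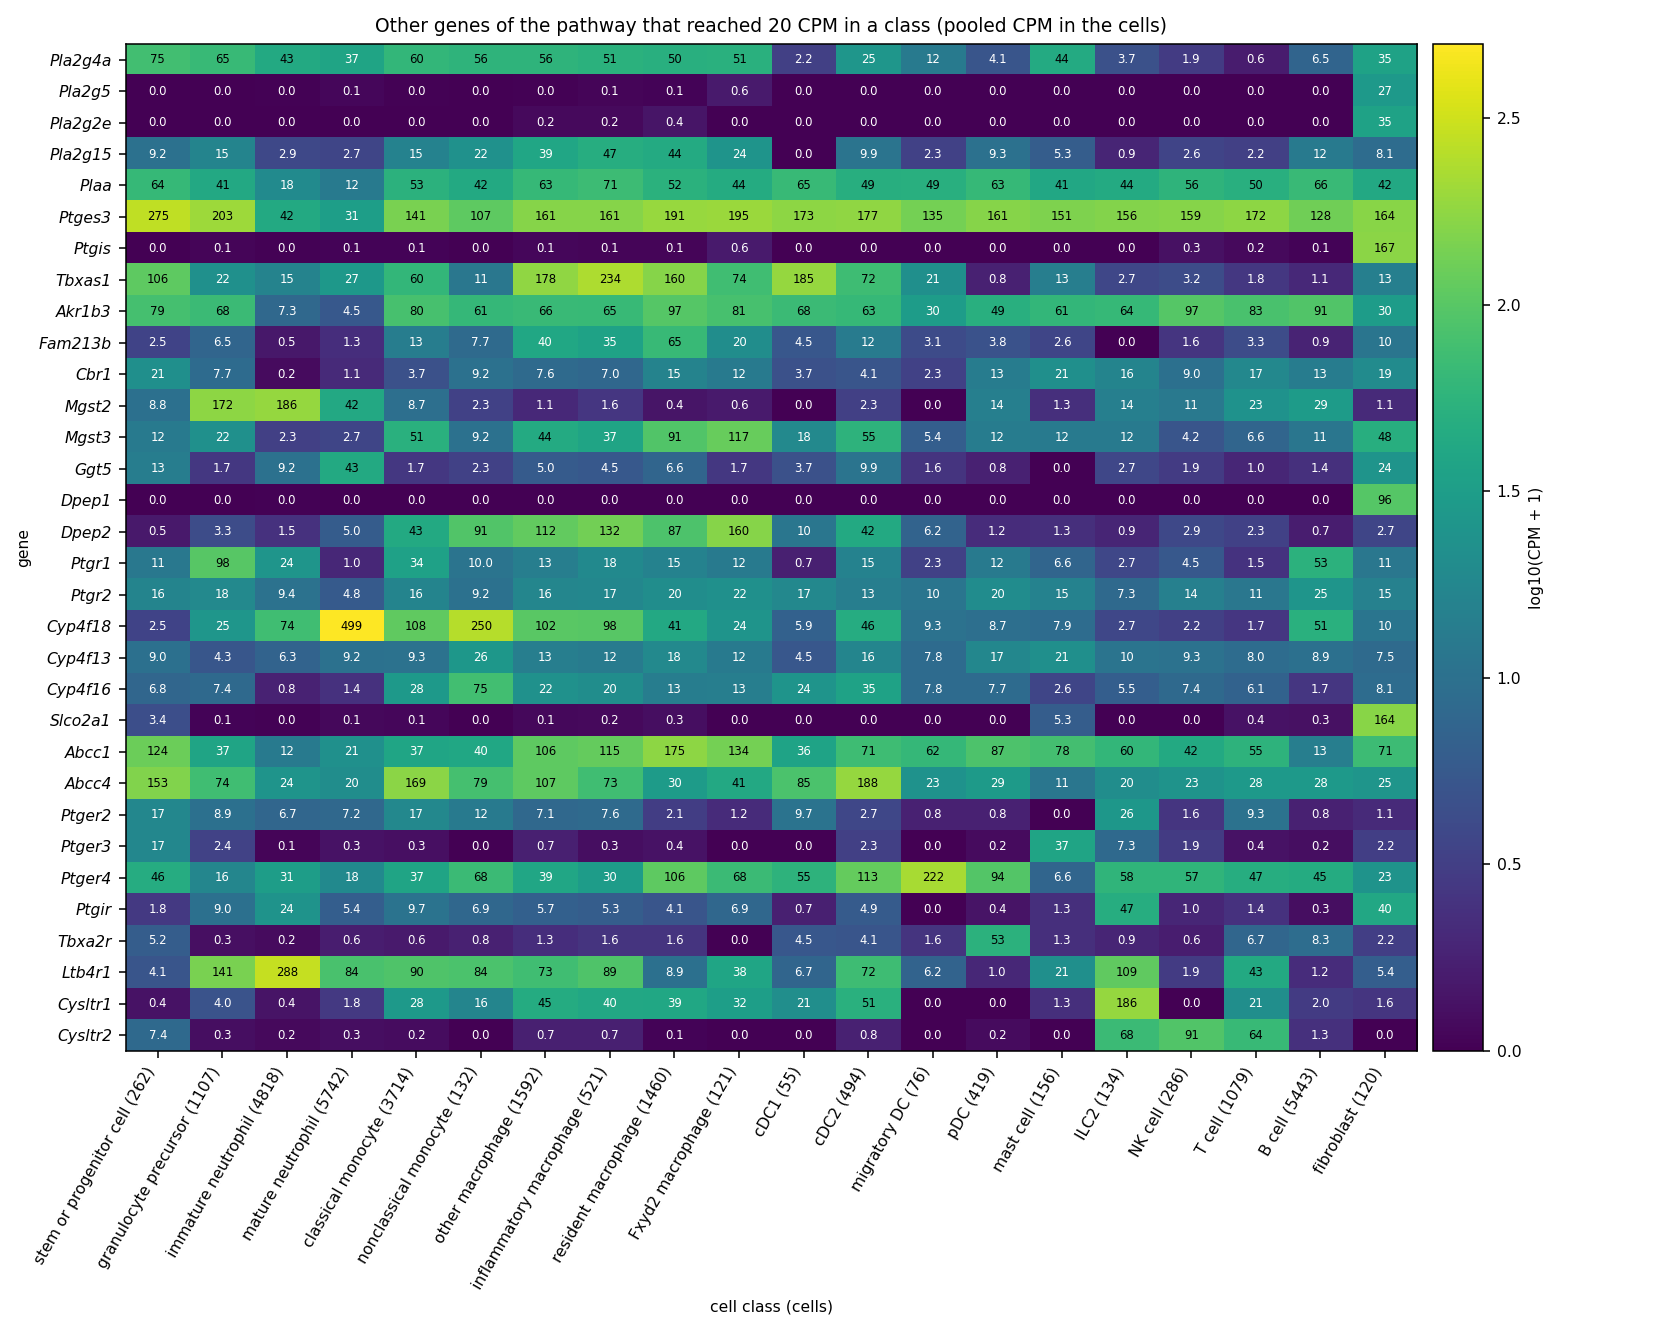
Pooled CPM of the 32 other genes of the list that reached 20 CPM in a class (rows) in 20 classes (columns, cells in parentheses), with the value printed in each cell and the colour on a log10(CPM + 1) scale. Cyp4f18 is highest in mature neutrophils (499), Ltb4r1 and Mgst2 in immature neutrophils (288 and 186), and Ptgis (167) and Slco2a1 (164) in fibroblasts, with at most 5.29 in any other class.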

How the data were processed

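The synovial CD45+ cells had been sequenced from Chromium 3′ libraries. Per the labels and the methods of the study, the authors used Cell Ranger 7 on mm10, corrected for free RNA with SoupX, removed doublets with DoubletFinder and filtered cells with Seurat, and deposited 1 table of whole-number UMI counts for all 6 samples. Of its stored entries 1.68% were 0 (1.12 to 4.59% for the members), and these were read as no UMI. Whether the counts are those before or after the correction is not given in the sources used here. Library numbers were read from the barcodes and could not be tied to PBS or PEPITEM, so no comparison of treatments and no test was made. Cells were gated by 24 marker lists, with a marker counted at 1 per 10000 UMIs (50 for 7 abundant markers). Macrophages were divided further by marker lists for the resident, Fxyd2 and inflammatory classes. Those left over were the macrophages without further markers. The gate settings were chosen after the counts were seen, without using a member. Cells that passed several gates were kept out of the ranking. Counts of a class were pooled and scaled to CPM. Each cell was also thinned to 3000 UMIs (1516 shallower cells left out), since classes differed in depth. Python 3.11.15, numpy 2.4.6, scipy 1.17.1, pandas 2.3.3 and scanpy 1.11.5 were used, and the scripts were tested on simulated data. All members were described, with up to 3 other genes of each role of the pathway, by highest level. For each member, the 5 genes most like it were sought and named, except that some of those for Hpgd are not reported here. The members, lists and classes were chosen with earlier results of these data known. Alternatives were stricter gates, Leiden clusters, cells of several gates put into a class, the median of libraries, totals without the 50 leading genes, other minimums and pseudocounts, and leaving out each library. Alox12e, Alox12b and Ptgdr2 (also Gpr44) were not analysed here, and Prxl2b entered under its older symbol Fam213b.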

Additional observations from a re-analysis of the deposited data

How the results depend on the processing

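The class with the highest level was the same for 9 of 9 members with Leiden clusters, with the median of the libraries and without any 1 library, and for 8 with 1 marker more per gate (Alox5 was then highest in Fxyd2 macrophages, at 240.3 CPM against 227 in resident macrophages) and with cells of several gates put into a class (Alox5ap was then highest in classical monocytes, at 966 CPM against 944 in mature neutrophils). It was the same for 7 members without the 50 leading genes over all cells, the exceptions being Ptgs1 and Alox5. The Leiden clusters were named from the same marker gates, and members were not kept out of the genes open to the clustering. They are therefore not an independent check of the classes. Members whose highest class did not overlap with another numbered 3 with 20 cells of a class in a library and 6 with 50, when Ptges was under 20 CPM and the highest class of Hpgds and Hpgd was another. Of 99 levels recomputed, 96 were within 1.5-fold of the value given. The others, all without the 50 leading genes, were Ptgs2 in mature neutrophils (1158 CPM), Alox5ap in mature neutrophils (1844) and Lta4h in immature neutrophils (919). Leaving out each library in turn gave 699.8 to 801 CPM for Ptgs2 in mature neutrophils and 338 to 457 for Hpgd in nonclassical monocytes. With a pseudocount of 10, between 1 (Hpgd) and 5 (Ptgs2) of the 5 most similar genes were kept. No paired analysis was possible because the library numbers could not be tied to the samples and no test was made. Fibroblasts, mast cells and nonclassical monocytes numbered 120, 156 and 132, which limits what can be said of single libraries.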

Other observations

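Classical monocytes with cycling genes (1054 cells) and without (2660 cells) differed in some members. Ptgs2 was at 76.4 CPM in the cycling cells and 165 in the others, Hpgd at 15.1 and 45.96, Alox5ap at 783 and 1088, and Lta4h at 72.4 and 52.6. Both sets came from the same libraries, and the difference was not tested.

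A class of 27 cells passed the basophil gate and was too small for the ranking. Ptgs2 was at 1633 CPM in these cells (interval 1455 to 1827), from 305 UMIs, Alox5 at 236 and Alox5ap at 1307. For Ptgs2 the interval lay above the pooled level of the highest ranked class (739 CPM) and above its highest library (1246). The pooled levels of Alox5 and Alox5ap were above those of resident macrophages (231) and mature neutrophils (1177). Both were within the library ranges of these classes (180.3 to 271 and 780.2 to 1334), so no order was set for them. No library held more than 8 basophils. No UMI of Hpgds, the prostaglandin D synthase of mast cells, was found in the basophils, nor of Hpgd, Ltc4s or Ptgs1. With 27 cells at a median of 5916 UMIs, a low share of cells with such UMIs could go unseen. A further 3 cells passed the gate for megakaryocytes or platelets and held 7 UMIs of Ptgs1 (94.6 CPM, interval 38.1 to 195), the cyclooxygenase of platelets, and no UMI of Ptgs2.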
